A study of Mus musculus with 6 samples.

Results

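The 9 enzymes described here carry squalene to cholesterol: Sqle, Lss, Cyp51, Tm7sf2, Msmo1, Nsdhl, Ebp, Sc5d and Dhcr7, named in pathway order. They were taken by symbol from the deposited tables, which hold 24054 genes. All 9 were found, and all 9 were among the 11400 genes with enough counts to be tested. Poly(A) RNA came from macrophages that were grown out of the bone marrow of C57BL/6 mice, all wild type, over 7 days in medium conditioned by L929 cells, a fibroblast line that secretes macrophage growth factor. The untreated group held 3 samples with no added lipoprotein. The treated group held 3 samples given oxidised low-density lipoprotein (oxLDL), a damaged lipid particle recognised by scavenger receptors, at 50 µg/ml for 24 hours. Each group carried the numbers 1, 2 and 3 after the letters WT, and samples of the same number were matched as pairs. The labels do not say whether a number marks an animal or a culture, nor what the word mix in every title means, and ages and sexes were not given in the sources used here, so p-values measure the spread between these samples only.

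Cholesterol is built from acetyl-CoA in an arm that ends in squalene, and the enzymes after squalene close its chain into rings and trim lanosterol, the first sterol, into cholesterol. Their genes are textbook targets of SREBP2, a membrane-bound transcription factor that is released to the nucleus when sterols in the endoplasmic reticulum are scarce and retained there when they are plentiful. Macrophages that take up lipoproteins receive cholesterol from outside, and sterol intermediates of this pathway can activate LXR, the nuclear receptor that drives cholesterol export.

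When same-numbered samples were compared, the log2 fold changes (oxLDL over untreated) of Cyp51, Tm7sf2, Msmo1, Nsdhl and Dhcr7 lay between -1.24 and -1.04, those of Lss and Sqle were -0.69 and -0.60, and those of Sc5d and Ebp were -0.30 and -0.16. Sizes depended on pair 1: without it, Sqle had -0.08, Lss -0.33, and the first 5 lay between -1.14 and -0.70. Dhcr7, the reductase of the last step, fell in that paired fit of edgeR (adjusted p = 0.0286) and was the only member past the threshold of 0.05, while no member passed in the fit that ignores the numbers (0.352 for Dhcr7). The median over the 9 enzymes was -1.04 (-0.70 without pair 1), against 0.01 over all genes tested. The members' summed level was 638, 336 and 279 CPM (reads scaled to library size, with the authors' TMM factors) without oxLDL, in the order of the numbers 1 to 3. Treated samples, in that order, summed to 252, 244 and 186 CPM. All 3 oxLDL sums lay below the lowest untreated sum, and the untreated sums were spread more widely (417 ± 193 CPM, against 227 ± 36.2 CPM; SD, n = 3 per group). In bulk RNA, fewer cells that express a gene and less of its RNA per cell cannot be told apart.

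The promoters of 8 of the 9 genes, all but Sqle, could be matched to RefSeq windows of 300 bases (GRCm38.p6) around an annotated start, with 3 starts for Dhcr7 and 10 windows in all. They are shown because SREBP proteins are known to act at a sterol response element (SRE) together with NF-Y, which binds a CCAAT box, and Sp1, which binds a GC box. The letters were searched on both strands. They were chosen after the members' sequences had been seen, so the shares given here are a description and not a test. CCAAT was found in at least 1 window of all 8 genes, while 41.1% of all 27025 genes in the table have such a window and 37.4% of all 32851 windows hold it. The GC box GGGCGG was also found in all 8 genes (38.2% of all genes). The SRE core TCACNCCA was found in Msmo1 alone (4.97% of all genes), and the looser form TCACNNCA, which includes the former, in 5 of 8 genes, Cyp51, Msmo1, Nsdhl, Sc5d and Dhcr7 (15.7% of all genes). An E-box, CACGTG, was found in Sc5d and Dhcr7 (8.09% of all genes). A match describes letters and does not show that a factor binds there. The windows below belong to Dhcr7 (the start with most matches), to the oxidases Cyp51 and Msmo1, and to Ebp, whose level differed least between the groups. Capitals mark CCAAT and TCACNNCA matches on either strand, so CCAAT on the other strand reads ATTGG.
Dhcr7, chr7:143829964-143830263, plus strand: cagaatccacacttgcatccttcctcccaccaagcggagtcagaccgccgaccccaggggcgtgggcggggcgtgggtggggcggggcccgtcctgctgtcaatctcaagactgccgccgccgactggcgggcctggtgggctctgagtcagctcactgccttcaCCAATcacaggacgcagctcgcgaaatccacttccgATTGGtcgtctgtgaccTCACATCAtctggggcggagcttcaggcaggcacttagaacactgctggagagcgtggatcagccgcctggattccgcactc
Cyp51, chr5:4104648-4104947, minus strand: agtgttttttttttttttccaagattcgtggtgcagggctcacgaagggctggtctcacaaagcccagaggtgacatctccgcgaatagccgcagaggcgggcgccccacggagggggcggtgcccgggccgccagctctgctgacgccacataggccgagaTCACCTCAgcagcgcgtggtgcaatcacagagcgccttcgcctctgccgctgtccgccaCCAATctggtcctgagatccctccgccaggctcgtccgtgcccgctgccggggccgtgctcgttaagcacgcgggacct
Msmo1, chr8:64733529-64733828, minus strand: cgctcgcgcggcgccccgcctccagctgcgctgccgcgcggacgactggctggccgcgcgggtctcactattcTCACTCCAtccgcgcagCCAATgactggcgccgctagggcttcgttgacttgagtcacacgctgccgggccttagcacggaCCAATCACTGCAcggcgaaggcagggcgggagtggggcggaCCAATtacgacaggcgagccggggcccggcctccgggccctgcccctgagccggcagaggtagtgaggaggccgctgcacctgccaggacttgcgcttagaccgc
Ebp, chrX:8193463-8193762, minus strand: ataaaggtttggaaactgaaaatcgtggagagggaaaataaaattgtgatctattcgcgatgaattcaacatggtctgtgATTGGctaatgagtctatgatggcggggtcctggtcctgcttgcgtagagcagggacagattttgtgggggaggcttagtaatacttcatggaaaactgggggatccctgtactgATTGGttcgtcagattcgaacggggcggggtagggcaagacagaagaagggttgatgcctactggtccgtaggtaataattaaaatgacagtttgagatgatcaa

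The Ebp window held 2 CCAAT matches and 1 GC box but no TCACNNCA. Windows of Lss and Tm7sf2, with log2 fold changes of -0.69 and -1.10 in the paired fit, also held no TCACNNCA. The Sc5d window, whose gene also differed little, held TCACNNCA at position -52. In the Dhcr7 window the CCAAT matches start at -85 and -49 and the TCACATCA at -32. In Cyp51 the TCACCTCA starts at -88 and the CCAAT at -29. In Msmo1, 3 CCAAT matches start at -160, -96 and -55, and the match at -96 overlaps by a base the TCACTGCA at -92.

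**Figure D1:**
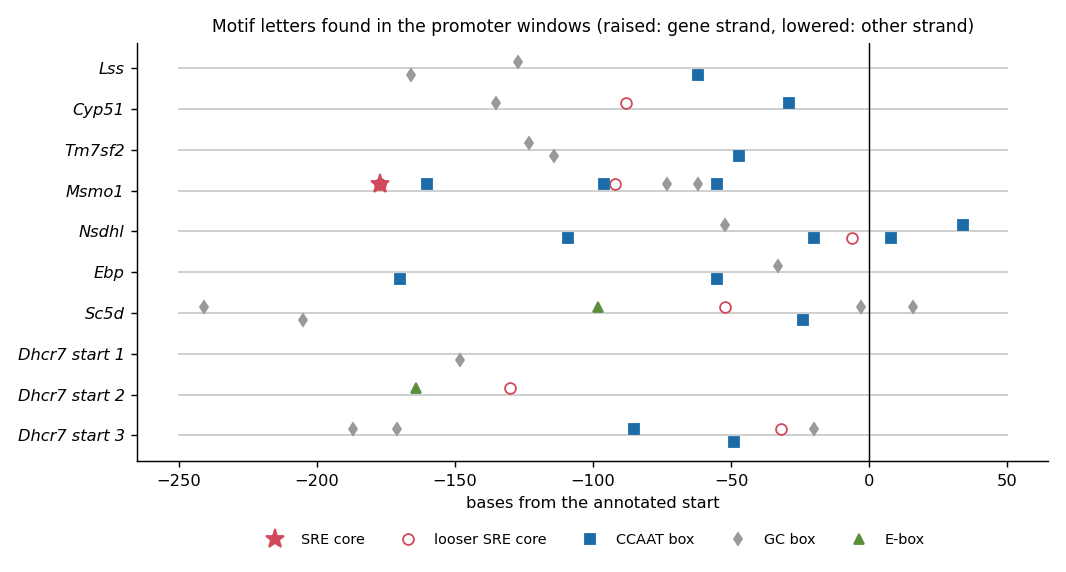
Matches to motif letters in the 10 promoter windows of 8 post-squalene genes, by distance in bases from the annotated start (vertical line). Symbols above a grey line are on the gene's strand and those below on the other; CCAAT (blue squares) is seen in every gene, and the strict SRE core (star) in Msmo1 only.

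Libraries held 13546572 to 15559310 expected counts, the most in untreated sample 1. In log2 CPM the libraries numbered 3 correlated with the others of their group at 0.90 to 0.93, and those numbered 1 and 2 with each other at 0.99. All 8 macrophage markers were detected, with a summed level of 12510 to 35736 CPM untreated and 8919 to 15942 CPM with oxLDL. Single markers in this sum did not move alike. Cd68 alone was higher in every oxLDL sample than in any untreated one, with 746 to 1183 CPM untreated and 1337 to 1634 CPM treated. Fcgr1 was lower, with 371 to 573 CPM untreated and 15.2 to 42.1 CPM treated. Emr1 (3057 to 9233 CPM untreated, 448 to 2516 CPM treated), Itgam and Spi1 were also lower without overlap. Levels of Csf1r, Mertk and Lyz2 overlapped between the groups. Sums of 6 fibroblast markers stayed under 0.41 CPM in every sample, with Pdgfra at 0, and of 5 erythroid markers under 0.49 CPM, with Hbb-bs at 0. Markers of 5 neutrophil genes summed to 6.28 to 21.3 CPM untreated and 1.06 to 3.76 CPM with oxLDL, those of 6 T and NK cell genes to 8.11 to 31.0 and 4.81 to 15.7 CPM, those of 5 B cell genes to 3.45 to 38.3 and 1.75 to 9.53 CPM, those of 5 dendritic cell genes to 1.82 to 4.61 and 1.59 to 3.42 CPM, and those of 4 endothelial genes to 39.6 to 77.0 and 21.8 to 35.4 CPM. Pax5 and Tek were at 0. The part of library differences or of these markers in the members' results was not tested.

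The series was compared once, treated against untreated, with the question of what oxLDL changes in macrophage RNA. Without regard to the numbers, edgeR's quasi-likelihood test passed 0 of 9 members and 0 of 11400 genes (0% lower, 0% higher), DESeq2 passed 0 of 9 members and 872 genes, and limma-voom 0 of 9 and 10 genes. At an unadjusted p under 0.05, 3 members were lower in edgeR, Cyp51, Msmo1 and Nsdhl, as were 8.39% of all genes tested (1674 genes passed that limit in either direction). With the number as a replicate block, 1 of 9 members fell and 0 rose, where 3.98% of all genes fell and 1.91% rose. The words rose and fell of a gene refer to this blocked fit of edgeR. In edgeR, 0 of 11400 genes passed without the block (smallest adjusted p over all genes 0.0667), although DESeq2 and limma-voom passed some. Without the block, the members' log2 fold changes ran from -1.44 ± 0.55 (SE) for Cyp51 to -0.11 ± 0.28 for Ebp, with edgeR adjusted p from 0.244 to 0.888 and a median of -1.10. DESeq2 with the block passed 4 members, Cyp51, Msmo1, Nsdhl and Dhcr7, all lower, where 1853 of 11400 genes passed, 1150 of them lower. Limma-voom with the block passed Msmo1 and Dhcr7, also lower, where 926 of 11400 genes passed, 621 of them lower. Every treated sample lay below every untreated one in 3 of 9 members, Lss, Msmo1 and Nsdhl, and in 10.2% of all genes. All 3 pairs were lower with oxLDL in 6 of 9 members, against 26.3% of all genes.

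Sqle encodes squalene epoxidase, the oxygen-dependent enzyme that commits squalene to sterols and is held to be a rate-limiting step of this arm. Its levels, always given in the order of the numbers, were 75.9, 35.9 and 24.8 CPM untreated and 23.5, 29.3 and 28.0 CPM with oxLDL. Sqle was lower in pairs 1 and 2 and slightly higher in pair 3, with log2 ratios of -1.69, -0.29 and 0.17, and the groups overlapped. Its fold change with the block was -0.60 ± 0.38 on the log2 scale (SE; 95% interval -1.61 to 0.41; edgeR adjusted p = 0.361). Without pair 1 it was -0.08, and without the block, leaving out untreated sample 1 moved it from -0.75 to -0.19.

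Lss, lanosterol synthase, closes the chain into the ring system of lanosterol. Its untreated levels were 52.4, 23.5 and 22.8 CPM, and those with oxLDL were 19.5, 19.4 and 17.8 CPM. The groups did not overlap, but untreated samples 2 and 3 lay just above the oxLDL samples, and only untreated sample 1 stood well clear. The log2 ratios of -1.43, -0.28 and -0.36 gave a fold change of -0.69 ± 0.26 (95% interval -1.38 to 0.0019), which did not pass (edgeR adjusted p = 0.174). It was -0.33 without pair 1, and without the block it moved from -0.80 to -0.31 when untreated sample 1 was left out.

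Cyp51, the cytochrome P450 that removes a methyl group from lanosterol, had the lowest ratio of any member in pair 1. It measured 120, 53.8 and 27.9 CPM untreated and 27.8, 28.9 and 17.4 CPM with oxLDL. Treated sample 2 lay above untreated sample 3 and treated sample 1 just below it, so the groups overlapped, although each pair was lower with oxLDL (log2 ratios -2.11, -0.90 and -0.68). The fold change of -1.24 ± 0.31 did not pass (95% interval -2.05 to -0.42; edgeR adjusted p = 0.0847), and was -0.81 without pair 1.

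Tm7sf2 encodes a reductase that acts on the product of Cyp51, a step that the lamin B receptor Lbr can also perform. It had the fewest reads of the members, with 14.6, 7.04 and 2.84 CPM untreated and 4.16, 3.45 and 2.26 CPM with oxLDL. The lowest value rested on 31 reads, whose exact Poisson 95% interval (counting error only) runs from 1.53 to 3.21 CPM and holds the untreated value of the same number. The log2 ratios were -1.81, -1.03 and -0.33, and the fold change of -1.10 ± 0.33 did not pass (edgeR adjusted p = 0.109) and was -0.71 without pair 1. Tm7sf2 shares 532 exonic bases with Vps51 on the same strand in GENCODE M21, so their reads may be hard to separate, and Vps51 lay between 20.5 and 32.6 CPM in the 6 samples.

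Msmo1 and Nsdhl act in turn to remove a pair of methyl groups from the first ring, Msmo1 as an oxidase and Nsdhl as the dehydrogenase that follows. Msmo1 measured 159, 81.2 and 73.6 CPM untreated and 55.2, 55.0 and 35.7 CPM with oxLDL. All oxLDL samples lay below all untreated ones, with log2 ratios of -1.53, -0.56 and -1.04 and a fold change of -1.05 ± 0.21 (95% interval -1.59 to -0.51; edgeR adjusted p = 0.0581). Nsdhl measured 54.8, 30.8 and 19.3 CPM untreated and 16.4, 15.7 and 14.7 CPM with oxLDL. Its untreated levels spanned 2.85-fold while the treated ones lay within 1.12-fold of each other, below every untreated sample. The log2 ratios of -1.74, -0.98 and -0.39 gave a fold change of -1.04 ± 0.27 that did not pass (95% interval -1.76 to -0.32; edgeR adjusted p = 0.0912).

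Ebp, the isomerase that moves a ring double bond, showed little difference. It measured 36.6, 32.1 and 27.6 CPM untreated and 37.5, 32.6 and 18.9 CPM with oxLDL. Samples 1 and 2 were nearly level between the groups and sample 3 was lower with oxLDL (log2 ratios 0.04, 0.02 and -0.55), for a fold change of -0.16 ± 0.17 (95% interval -0.59 to 0.27; edgeR adjusted p = 0.562). Sc5d, the desaturase that makes the substrate of Dhcr7, measured 66.7, 40.0 and 61.8 CPM untreated and 45.8, 45.3 and 43.0 CPM with oxLDL. Untreated sample 2 lay below all 3 treated samples, so the groups overlapped and the ratios differed in sign (-0.54, 0.18 and -0.52). The fold change of -0.30 ± 0.18 did not pass (95% interval -0.78 to 0.18; edgeR adjusted p = 0.342). The intervals of Ebp and Sc5d hold 0, and that of Sc5d also holds the value of Lss.

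Dhcr7 reduces the last ring double bond and competes for its substrate with the light-driven synthesis of vitamin D. It measured 57.5, 31.4 and 18.2 CPM untreated and 22.1, 14.8 and 8.09 CPM with oxLDL. The groups overlapped, because untreated sample 3 lay below oxLDL sample 1, but each pair was lower by a similar amount, with log2 ratios of -1.38, -1.09 and -1.17. The SD of these ratios over pairs was 0.15, while those of the other 8 members ran from 0.33 to 0.97. Dhcr7 fell by 1.22 on the log2 scale (SE 0.12; 95% interval -1.53 to -0.90; edgeR adjusted p = 0.0286 with the block and 0.352 without it). Its call ended without pair 1 (edgeR adjusted p = 0.186) or pair 2 (0.114) and held without pair 3 (0.00335). Over all genes, those fits called 0 of 11492, 0 of 11478 and 3446 of 11543, in that order, so calls changed in the same way well beyond Dhcr7.

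**Figure D2:**
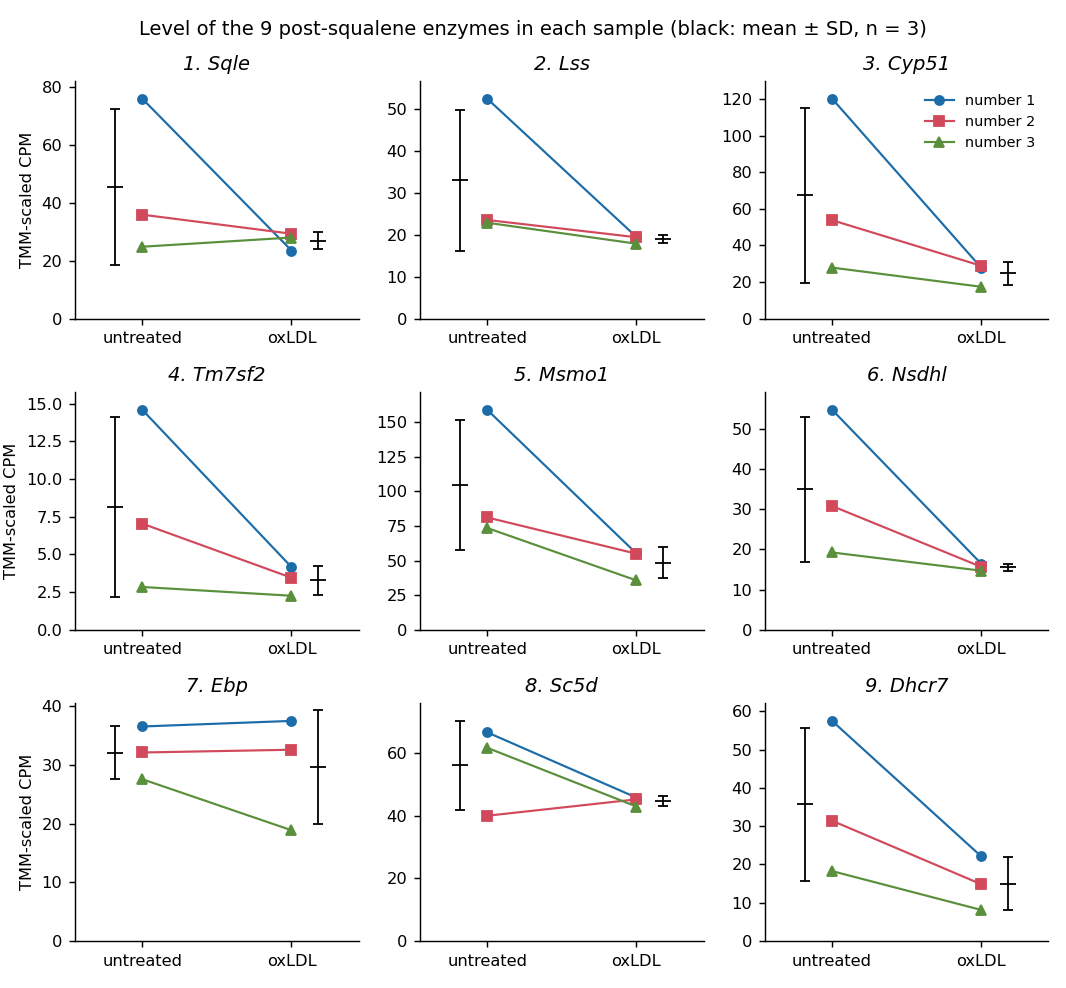
TMM-scaled CPM of each of the 9 enzymes in the 6 samples, with lines joining samples of the same number and black bars giving the mean ± SD of each group (n = 3). Untreated sample 1 (blue circles) is the highest untreated sample in all 9 panels, and the treated samples lie within 1.99-fold of each other except for Dhcr7.

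**Figure D3:**
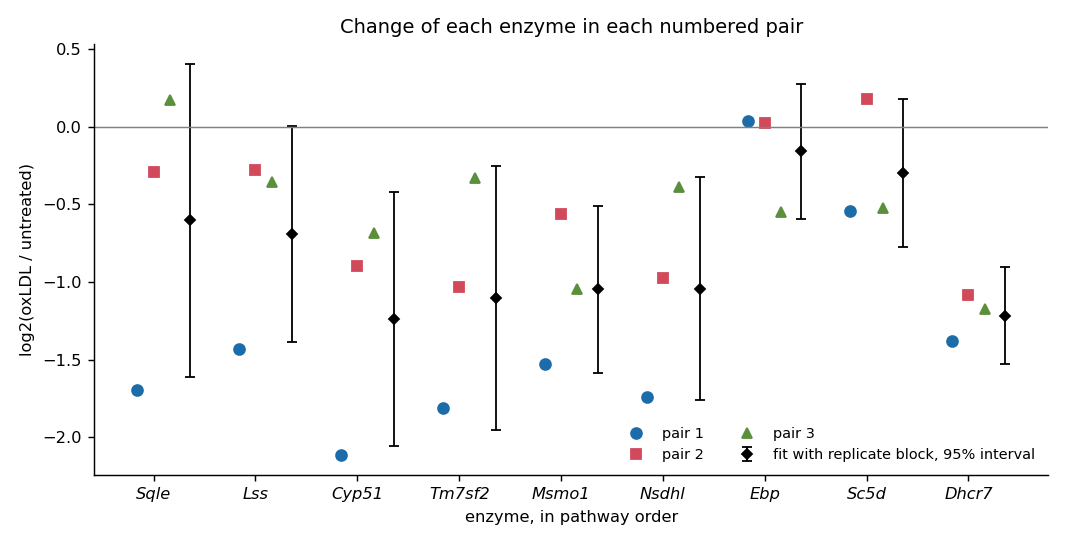
The log2 ratio of oxLDL to untreated for each enzyme in pathway order, in pairs 1, 2 and 3 (coloured symbols), with the fold change of the blocked fit and its 95% interval (black). Pair 1 has the lowest ratio for each enzyme but Ebp, and the Dhcr7 ratios lie between -1.38 and -1.09.

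The members differed among untreated samples as well as between groups. Untreated sample 1 was the highest untreated sample for all 9 members, and untreated sample 3 the lowest for 8, the exception being Sc5d. Among oxLDL samples, sample 3 was the lowest for 8 members, with Sqle as the exception. The highest untreated level was a median of 2.85 times the lowest, against 1.55 times among oxLDL samples, and the range was narrower with oxLDL in 8 of 9 members, all but Ebp. Over all genes tested these medians were 1.54 and 1.40, and 61.7% of genes had the narrower range with oxLDL. The median log2 ratios of the members were accordingly -1.53, -0.56 and -0.52 in pairs 1, 2 and 3, with 8, 7 and 8 members below 0. Of all 11400 genes tested, 5732, 5605 and 5573 were below 0 in these pairs. Without untreated sample 1 and without the block, the members' median log2 fold change was -0.59, against -1.10 with it, and all 9 values stayed negative.

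**Figure D4:**
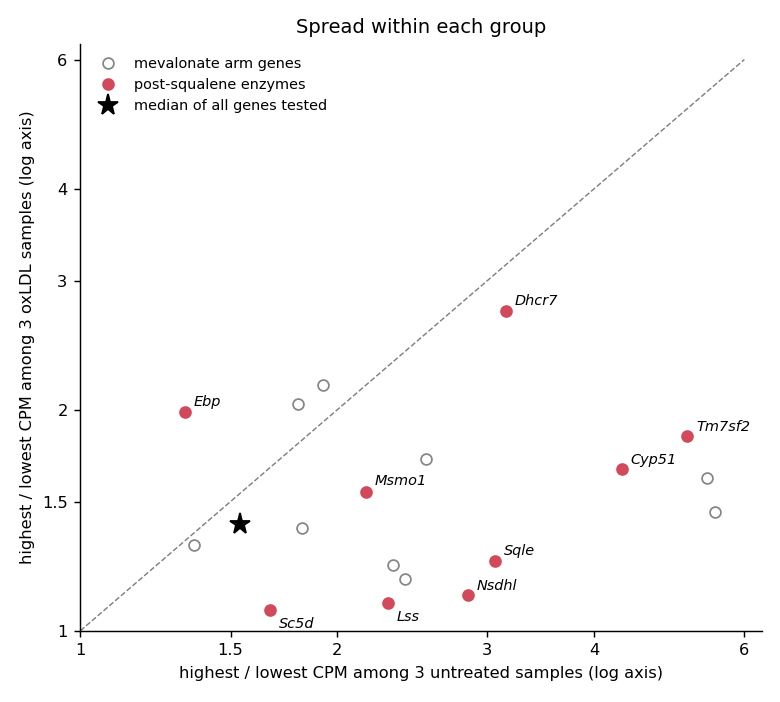
Highest over lowest CPM among the 3 untreated samples (horizontal, log axis) and the 3 oxLDL samples (vertical, log axis) for the post-squalene enzymes (filled), 9 mevalonate arm genes (open) and the median of all genes tested (star). Points below the dashed line vary less with oxLDL; 8 of the 9 enzymes lie there, and Ebp lies above it.

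Other genes that act after squalene were also measured. Hsd17b7, the ketone reductase that follows Nsdhl, had a value of -0.71 ± 0.21 (adjusted p = 0.110, edgeR), Lbr -0.49 ± 0.17 (0.143), and 0610007P14Rik, the mouse counterpart of the yeast scaffold Erg28, -0.46 ± 0.17 (0.159). None of these 3 genes passed, and each was lower with oxLDL in all 3 pairs.

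The post-squalene oxidases draw electrons from NADPH through P450 reductase, cytochrome b5 and its reductases, and Cyp51 binds the haem protein Pgrmc1. Of these 7 genes 0 rose and 0 fell in edgeR with the block, and the list median was 0.43. The highest value was that of Pgrmc1, with 59.3, 67.9 and 72.0 CPM untreated and 97.5, 104 and 90.5 CPM with oxLDL (0.55 ± 0.13, edgeR adjusted p = 0.0741). Pgrmc1 was higher in all 3 pairs and its groups did not overlap. Cyb5r3, a cytochrome b5 reductase, had a value of 0.53 ± 0.16 (edgeR adjusted p = 0.109). The list did not move as 1: without the block, 5 genes had values above 0 and 2 below it. Groups did not overlap in 2 genes that were higher with oxLDL and in 1 that was lower. Of the 11400 genes tested, 1229 and 1166 did so.

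Upstream of squalene, 1 of 10 genes of the mevalonate arm fell and 0 rose, where 3.98% of all genes fell. The list median was -1.02. Pmvk, phosphomevalonate kinase, measured 17.5, 13.15 and 9.73 CPM untreated and 8.32, 7.17 and 4.08 CPM with oxLDL and fell by 1.06 (SE 0.16; edgeR adjusted p = 0.0396, and 0.261 without the block). Fdft1, the synthase that supplies squalene to Sqle, measured 47.2, 21.4 and 18.6 CPM untreated and 10.7, 11.1 and 18.4 CPM with oxLDL, so that pair 3 was nearly level, as it was for Sqle. Its value of -1.03 ± 0.42 did not pass (edgeR adjusted p = 0.195), and its counts were not whole in all 6 samples, so some of its reads were divided with other genes.

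Among 12 genes of SREBP2 processing and feedback, 0 rose and 0 fell (median -0.11), where 1.91% of all genes rose and 3.98% fell. The values with the largest size were those of Rnf145, a ubiquitin ligase of the endoplasmic reticulum (-0.85 ± 0.25, edgeR adjusted p = 0.108), and Insig1, which retains SREBP2 and is itself its target (-0.81 ± 0.17, edgeR adjusted p = 0.0637). Of 5 other SREBP2 targets 3 were tested and 1 fell, the sterol carrier Stard4, from 31.8 ± 21.8 to 10.6 ± 4.02 CPM (SD, n = 3; edgeR adjusted p = 0.0452, and 0.317 without the block). Npc1l1 was too low to test. Of 10 genes of LXR and oxysterols 8 were tested and 1 fell, Nr1h3, which encodes LXR alpha, from 24.5 ± 16.1 to 9.65 ± 3.83 CPM (edgeR adjusted p = 0.0452, and 0.330 without the block). Ch25h and Cyp7b1 were too low to test, and the list median was 0.13.

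**Figure D5:**
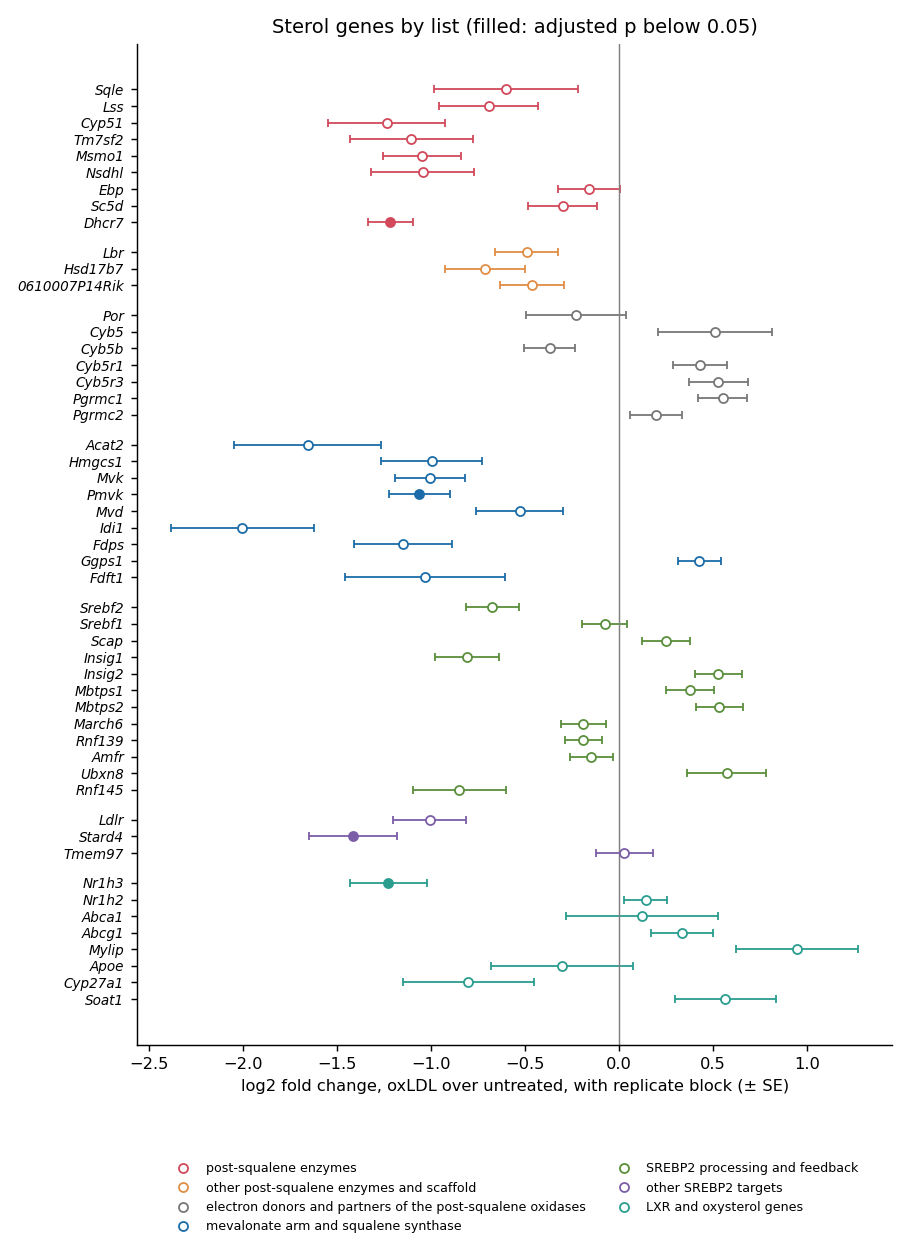
Log2 fold change of oxLDL over untreated with the replicate block (± SE) for tested genes of the 7 sterol lists, coloured by list. Filled points have an adjusted p below 0.05 in edgeR and are Dhcr7, Pmvk, Stard4 and Nr1h3, all below 0.

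The members were compared with each other over the 6 samples as a description, on log2(CPM + 1) values that share libraries and treatment. Each of 7 members correlated with the mean standardised profile of the other 8 at r = 0.86 to 0.98, highest for Cyp51 and lowest for Sqle, while Ebp and Sc5d had 0.57 and 0.56. Of 8335 other tested genes with a mean of at least 10 CPM, the 5 whose profile was most like the members' mean were 0610007P14Rik (r = 0.995), Eif5b (0.994), Psmb2 (0.989), Tubb4b (0.988) and Prrc2a (0.986). The first of these measured 27.3, 17.2 and 16.4 CPM untreated and 15.5, 15.5 and 12.4 CPM with oxLDL, so that untreated sample 1 was its highest sample as well. Eif5b, a translation initiation factor, also peaked in untreated sample 1 and was lowest in oxLDL sample 3, from 372 CPM in untreated sample 1 to 243 CPM in oxLDL sample 3.

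Some counts of the members could hold reads of other genes. The counts of Lss, Ebp and Sc5d were not whole in 1 sample each, and those of the other 6 members were whole in every sample (tolerance 0.005). Besides Tm7sf2, Cyp51 shares 166 exonic bases with Akap9 on the opposite strand and Lss 381 with the antisense gene 4930483K19Rik, in GENCODE M21. Akap9 lay between 83.7 and 166 CPM and 4930483K19Rik at or below 0.14 CPM. Whether counting used strand is not stated in the sources used here.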

How the data were processed

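The authors deposited 2 tables of 24054 genes in 6 samples. In the first are expected counts that the authors estimated with RSEM, as its name says; tools named in the submitters' processing notes, with no role given, are Bowtie2 2.1.0, RSEM 1.2.15 and edgeR. In the second, the deposited values are a normalised signal: CPM, with TMM scaling of library sizes, as its name says. All of its values were whole reads times a constant (tolerance 0.005), and at least 99.9% equalled the rounded expected counts. The notes name hg19, a human build, although the symbols are mouse, so no coordinates are taken from the counting. Annotation and strand setting were not given in the sources used here.

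Levels and pair ratios are the deposited CPM values. Expected counts were rounded and tested with the quasi-likelihood test of edgeR 4.0.16 in R 4.3.3 (robust, TMM, filterByExpr with minimum count 10 and minimum total count 15), with Benjamini-Hochberg adjustment over all 11400 genes kept. The main design has group as its only term, and the fit with the number as a block stands beside it and is quoted for single genes. Samples of the same number deviated together from their group means (r = 0.68, 0.47 and 0.71 over genes, each above 0.1), which is why the numbers were taken as pairs. Deviations also correlated at 0.66 between untreated sample 2 and oxLDL sample 1, and at 0.25 between untreated sample 1 and oxLDL sample 2. Both values are above 0.1 as well, and 0.66 is above the 0.47 of pair 2. The correlations therefore cannot show that samples 1 and 2 were matched rightly, and the blocked fit takes the numbers as given. DESeq2 1.42.0, limma 3.58.1 and other settings were alternatives. The edgeR fits were checked on simulated counts into which shared pair effects had been built. Simulated log2 changes of -1 passed in 0% of cases without the block and in 96% with it. Those of -2 passed in 92% and 100%. Because the pair effects were built in, the simulation cannot show which fit suits these samples. Its spread was set and not estimated from these samples, so its pass rates do not carry over to them. Promoter sequences are RefSeq's (GRCm38.p6), with motif letters chosen after the members' sequences had been seen. Named genes are all members, list genes called in either fit and the 5 most alike. In lists where none was called, the 2 with the largest change are named. The other named genes were added for their roles or levels after their values were seen. The members, the lists and the use of the blocked fit for single genes were chosen with earlier results of these data known. Some genes of the lists, which the list counts include, are not reported here by name or shown in the plots.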

Additional observations from a re-analysis of the deposited data

How the results depend on the processing

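Against 0 members, 0 genes and 0 genes of the other sterol lists called by edgeR without the block, the replicate block gave 1, 672 and 4, as it did on reads recovered from the CPM table, an alternative chosen after seeing the data. DESeq2 gave 0, 872 and 8, and with the block 4, 1853 and 16. Limma-voom gave 0, 10 and 0, and with the block 2, 926 and 7. No count filter called 8 genes, and limma on log2 CPM called 11 with a pseudocount of 1 and 12 with 0.1, all 3 with 0 members. RLE and upper-quartile factors called 0, and the latter moved the median of all genes to 0.11, where that of the members was -0.99. Leaving out a sample without the block gave 0 to 1 members (Nsdhl, without untreated sample 3), 0 to 737 genes and 0 to 3 sterol genes. These fits leave a group with 2 samples. With the block, leaving out a pair gave 0 to 4 members (Cyp51, Tm7sf2, Nsdhl and Dhcr7 without pair 3), 0 to 3446 genes and 0 to 25 sterol genes. Of the members' fold changes, 8 were negative in all 22 settings, the main fit included. Ebp turned positive without oxLDL sample 3 (0.12) and with the block without pair 3 (0.039), and ran from -0.32 to 0.12 over the fits that leave out a sample. The causes were not tested. Depth limits Tm7sf2 most, with 31 to 212 reads a sample.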
